A study of Mus musculus with 29 samples.

Results

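The comparison described here set stroked C57BL/6 wildtype mice that received tacrolimus with a delay (WT-Tacr delayed, 5 mice) against stroked wildtype mice with no tacrolimus (WT, 4 mice). These 9 mice were taken from the 29 samples of the series by their genotype and treatment labels, WT_IM_del with stroke and WT with stroke. The mice were 3 months old. According to the study's methods, both sexes were used, the photothrombotic stroke was placed in the right sensorimotor cortex, and tacrolimus was released from a pump under the skin of the back. The delayed pumps started at 7 days post injury (dpi), and polyA RNA was sequenced from tissue collected at 21 dpi. The labels name the tissue only as brain, and whether the untreated mice carried a pump with vehicle is not given in the sources used here. The genotype labels of the groups differ, WT_IM_del and WT, and the study describes both groups as wildtype. The 4 non-stroked WT mice of the series are given beside some genes as the level without a lesion. The question posed by this comparison was how far the injured tissue still differs from untreated stroke when calcineurin inhibition begins a week late.

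Tacrolimus enters cells and binds FK506-binding proteins, foremost FKBP12, which is encoded by Fkbp1a. The complex blocks calcineurin, a calcium- and calmodulin-dependent phosphatase. Calcineurin normally dephosphorylates the NFAT factors, which then enter the nucleus and switch on interleukin-2 and other cytokine genes in activated T cells. Calcineurin is also abundant in neurons, and the drug is used to keep grafts from being rejected.

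The samples form 2 cohorts by the prefix of their labels, and this bears on every value below. All 5 WT-Tacr delayed mice were in cohort TF, whereas the WT mice were split between TF (mice 5_2 and 5_3) and Imm2 (mice 2m_3 and 2m_5). Total counts ran from 17789044 to 39695671 over the 9 samples, and the highest TF library, with 29928311 counts, was below the lowest Imm2 library of WT stroke, with 37567368. The Y-linked gene Ddx3y had 0 counts in all 7 TF mice, and 35.4 and 42.6 CPM (counts per 1e+06 reads of the library, whose size was adjusted by the trimmed mean of M-values, TMM) in mice 2m_3 and 2m_5. Sex, as read from Y-linked genes, and cohort thus cannot be told apart among these mice. Without the 2 Imm2 mice the comparison is within TF, 5 against 2, and its values are given beside the pooled ones. A second feature concerned 1 mouse: WT-Tacr delayed mouse 5_5 had the highest level of the 9 mice for 19.3% of all genes tested, against 5.9% to 8.92% for the other delayed mice, 7.47% and 7.59% for the TF WT mice and 17.8% and 19.7% for the Imm2 WT mice. Mouse 5_5 had the smallest library of the 9, with 17789044 counts, and the part of depth in this share was not tested. Within TF, mouse 5_5 also had the highest first principal component.

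**Figure D1:**
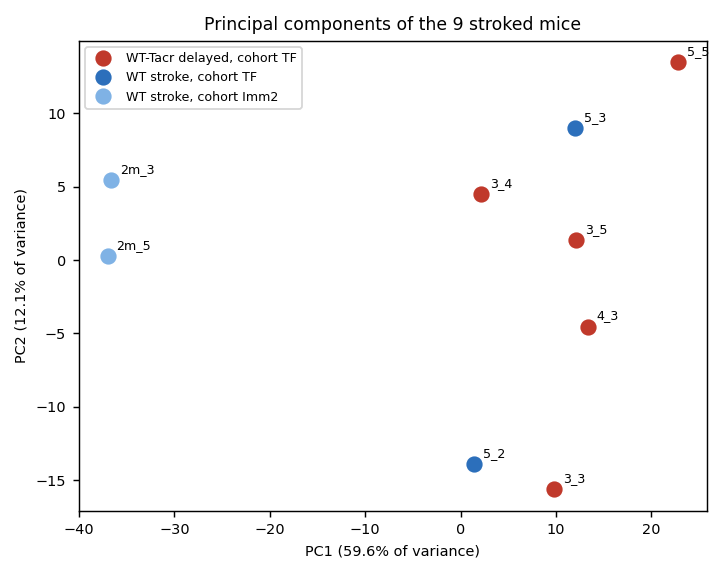
Principal components of the 9 stroked mice from log2 CPM of the 500 most variable genes, PC1 on the x axis (59.6% of variance) and PC2 on the y axis (12.1%). Red points are WT-Tacr delayed mice, dark blue points WT mice of cohort TF and light blue points WT mice of cohort Imm2, each with its mouse number. The pair of Imm2 mice lies at PC1 of -36.6 and -37.0, and the 7 TF mice, treated or not, lie between 1.37 and 22.8.

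No gene passed the test between WT-Tacr delayed and WT stroke. Of 17031 genes tested with edgeR's quasi-likelihood test over all 29 samples in 8 groups, 0 (0%) were called at an adjusted p below 0.05 with an absolute log2 fold change above 1, and 0 passed the adjusted p alone. The smallest adjusted p was 0.15. At an unadjusted p below 0.05 there were 1325 genes higher in WT-Tacr delayed (7.78%) and 2130 lower (12.5%). DESeq2 called 1 gene, Lars2, the mitochondrial leucyl-tRNA synthetase gene, which was lower by DESeq2 with a log2 fold change of -1.03 (adjusted p = 0.0364). The DESeq2 fit pooled the WT mice of TF and Imm2 with no cohort term, and the part of cohort in the Lars2 value was not tested. The count rested on the TF WT mice: it was 88 without WT mouse 5_2 and 227 without WT mouse 5_3, fits in which the WT group is mostly Imm2, and 0 without any other of the 9. All 5 delayed mice lay above all 4 WT mice for 349 genes (2.05%) and below them for 371 genes (2.18%).

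Fewer genes had a low p with cohort as a covariate or within TF. With cohort as a covariate, 171 genes (1%) were higher and 193 (1.13%) lower at an unadjusted p below 0.05, and 0 were called. Within TF, 214 of 15984 genes (1.34%) were higher and 170 (1.06%) lower at that level, again with 0 called. In both directions together these were 2.14% of genes with cohort as a covariate and 2.4% within TF, where tests with no difference would give 5%. The fit within TF had 2 WT mice instead of 4, and so less power to reach a low p. The part of this lower power in the lower counts was not tested. All 5 delayed mice lay above both TF WT mice for 728 genes (4.27%) and below both for 933 (5.48%). The untreated WT mice themselves differed by cohort: TF minus Imm2, with 2 mice each, gave 351 called genes of 17263 (2.03%), of which 79 were higher and 272 lower in TF. This last contrast shares its WT mice with the comparison of interest, so the values of both are set side by side below and not correlated.

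The genes that tacrolimus acts on were taken first. The FK506-binding protein family had 14 tested members, of which 1 was higher and 6 lower at an unadjusted p below 0.05, with a median log2 fold change of -0.08 against 0.01 over all genes, of which 7.78% were higher and 12.5% lower at that level. Fkbp1a (chromosome 2, 151542483 to 151561692 of GRCm38), which encodes the main binding partner of the drug, had 397, 310, 347, 364 and 337 CPM in the delayed mice, 353 and 350 CPM in the TF WT mice and 560 and 544 CPM in the Imm2 WT mice. The delayed values enclosed those of the TF WT mice, and both Imm2 mice were above all TF mice. Its log2 fold change was -0.36 (SE 0.132, adjusted p = 0.162) in the pooled comparison and 0.00 (SE 0.0929) within TF. Fkbp1b, Fkbp2 and Fkbpl showed the same split, with pooled values of -0.50, -0.42 and -0.49 and values within TF of 0.05, -0.01 and 0.00. Fkbp3 (-0.27) and Fkbp5 (-0.35) were the other members lower at an unadjusted p below 0.05, and Fkbp9 (0.26), a chaperone of the endoplasmic reticulum, was the member higher. The remaining members, Fkbp4, Fkbp7, Fkbp8, Fkbp10, Fkbp11, Fkbp14 and Fkbp15, had pooled log2 fold changes of -0.12, 0.36, -0.04, 0.27, 0.07, 0.29 and 0.11. Within TF the family's median was 0.01, and Fkbp5, taken up again below, was the only member with all delayed mice on 1 side of both WT mice. They lay below, as for 5.48% of all genes, while for 4.27% of all genes they lay above.

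Among the 17 calcineurin and NFAT pathway genes the median log2 fold change was -0.03, with 2 members higher and 4 lower at an unadjusted p below 0.05, against 7.78% and 12.5% of all genes. Ppp3ca, the most abundant catalytic subunit gene of calcineurin in forebrain, had 1283, 924, 1169, 1086 and 940 CPM in the delayed mice and 1260, 1108, 1274 and 1361 CPM in the WT mice. These ranges overlapped, and the log2 fold change was -0.21 (95% confidence interval -0.45 to 0.03, adjusted p = 0.302). The other catalytic subunit genes, Ppp3cb and Ppp3cc, and the regulatory subunit gene Ppp3r1 gave -0.04, -0.31 and -0.03. Rcan1, a calcineurin inhibitor whose short transcript is induced by NFAT, had 57.9, 53.6, 50.1, 54.6 and 49.1 CPM in the delayed mice and 53.2, 51.7, 57.8 and 54.3 CPM in the WT mice. Its log2 fold change was -0.03, with a 95% confidence interval from -0.19 to 0.12. Of the NFAT genes, Nfatc2 and Nfatc4 had pooled log2 fold changes of 0.33 (SE 0.155, adjusted p = 0.235) and 0.74 (SE 0.254, adjusted p = 0.155), while Nfatc1 and Nfatc3 gave 0.08 and 0.10. Within TF the value of Nfatc2 was 0.30 (SE 0.21) and that of Nfatc4 0.33 (SE 0.338). Nfatc4 had 3.18, 4.28, 4.63, 3.62 and 7.59 CPM in the delayed mice, 3.78 and 3.67 CPM in the TF WT mice and 1.89 and 1.86 CPM in the Imm2 WT mice, so that the delayed mice without mouse 5_5 were spread around the TF WT mice. Dyrk1a, a kinase that returns NFAT to the cytoplasm, was the only gene of this list whose groups did not overlap, with 63.9 to 70.8 CPM in the delayed mice against 73.6, 73.7, 84.2 and 87.2 CPM. It gave -0.22 (SE 0.0757, adjusted p = 0.155) pooled and -0.10 (SE 0.074) within TF. Of all genes tested, 2.18% had all delayed mice below all WT mice. Calm3, a calmodulin gene, had a pooled log2 fold change of -0.58 (adjusted p = 0.15) and a value within TF of -0.09, while Calm2 gave -0.16 pooled. The calcineurin inhibitors Rcan2, Rcan3 and Cabin1 and the anchoring protein gene Akap5 gave -0.12, 0.28, 0.02 and 0.00.

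The cytokine genes that calcineurin controls in T cells were barely read in this tissue. Of 12 such genes, 2 had enough counts to be tested. Il2 had 0, 0, 2, 0 and 1 counts in the delayed mice and 1, 0, 0 and 4 counts in the WT mice, and Ifng had 0, 0, 1, 0 and 0 against 2, 0, 0 and 0. A difference in these genes was not detectable at this depth. Il2ra, the alpha chain of the interleukin-2 receptor, and Tnf gave log2 fold changes of 0.96 (SE 0.499, adjusted p = 0.273) and 0.65 (SE 0.493, adjusted p = 0.447).

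Interferon-stimulated genes had the highest share of members that were higher in WT-Tacr delayed mice at an unadjusted p below 0.05, although no member was called. They encode antiviral effectors and the factors that transmit interferon signals. Many carry the interferon-stimulated response element, of which the core searched here was GAAANNGAAA on both strands of the 250 bases before the start of each gene (RefSeq, GRCm38.p6; overlapping matches counted). Of the 25 interferon genes listed, 17 were found in the promoter table and 11 of these (64.7%) held the core, whereas 936 of all 27025 genes with a promoter (3.46%) did. The stretches of Isg15, Gbp3 and Ifit1 are shown because these genes are described next; capitals mark the matches, each sequence runs 5′ to 3′ along the strand of its gene, while Gbp3 and Ifit1 hold the core in its reverse complement.
Isg15, chr4:156200860-156200911, minus strand: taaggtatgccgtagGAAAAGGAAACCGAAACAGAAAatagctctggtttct
Gbp3, chr3:142559984-142560029, plus strand: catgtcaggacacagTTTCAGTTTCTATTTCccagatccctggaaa
Ifit1, chr19:34640770-34640828, plus strand: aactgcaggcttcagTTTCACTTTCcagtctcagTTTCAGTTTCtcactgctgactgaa

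All 25 interferon genes were tested, and all 25 had a positive log2 fold change in the pooled comparison, with a median of 1.01 against 0.01 over all genes. Of these, 21 were higher at an unadjusted p below 0.05, against 7.78% of all genes. With cohort as a covariate the median was 0.56 and 4 were higher at that level, and within TF the median was 0.67 and 0 were. Over all genes the shares were 1% with cohort as a covariate and 1.34% within TF. The values of mouse 5_5 carried much of this. It had the highest level of the 9 mice for all 25 genes. Without it the pooled median was 0.65 with 12 genes at an unadjusted p below 0.05, and the median within TF was 0.40. Relative to the mean of the TF WT mice, the median log2 difference over the 25 genes was -0.11, 0.50, 0.23 and 0.76 in delayed mice 3_3, 3_4, 3_5 and 4_3, and 1.45 in mouse 5_5. The delayed mice were therefore spread over a wider range than the difference between the groups within TF.

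Isg15, a ubiquitin-like modifier, had 3.34, 5.83, 3.19, 5.98 and 12.8 CPM in the delayed mice, 2.48 and 3.12 CPM in the TF WT mice and 0.934 and 0.861 CPM in the Imm2 WT mice (chr4:156199424-156200818, minus strand, GRCm38). Every delayed mouse lay above every WT mouse, although mouse 3_5 exceeded the TF WT mouse 5_3 by little. In the pooled fit the log2 fold change was 1.77 (SE 0.472, adjusted p = 0.15), and 1.15 (SE 0.596) within TF. The non-stroked mice had 0.522 ± 0.177 CPM (SD, n = 4). Gbp3, a guanylate-binding protein gene, had 10.1, 14, 12.9, 13.7 and 24.4 CPM against 9.17 and 9.84 CPM in TF and 8.28 and 6.61 CPM in Imm2, with a log2 fold change of 0.82 (SE 0.27, adjusted p = 0.154). Usp18, which removes Isg15 from its targets, was the other list member whose groups did not overlap, with a log2 fold change of 1.28 (SE 0.395, adjusted p = 0.154). Isg15, Gbp3 and Usp18 were the 3 of 25 genes with all delayed mice above all WT mice, against 2.05% of all genes. Irf7, a transcription factor that amplifies the interferon response, had 5.39, 10.2, 5.46, 11.5 and 21 CPM in the delayed mice and 4.04, 5.53, 4.87 and 3.56 CPM in the WT mice. Its groups overlapped, since delayed mice 3_3 and 3_5 were just below WT mouse 5_3, and the log2 fold change was 1.24 (SE 0.356, adjusted p = 0.15). Ifit1, an RNA-binding antiviral effector, had 4.54, 8.25, 6.62, 10.8 and 21.9 CPM against 5.82, 5.93, 3.43 and 3.86 CPM, and its groups overlapped too. Ifi44 had 1.61 to 5.95 CPM in the delayed mice and 1.7, 1.68, 0.682 and 0.667 CPM in the WT mice, with values of 1.34 (SE 0.387, adjusted p = 0.15) pooled and 0.81 (SE 0.534) within TF.

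Antigen-presentation genes were likewise highest in mouse 5_5, while the other delayed mice stood in another order than for interferon genes. Relative to the mean of the TF WT mice, the median log2 difference of the MHC class I genes was 0.05, 0.43, 0.61 and 0.23 in mice 3_3, 3_4, 3_5 and 4_3 and 1.09 in mouse 5_5. The 15 MHC class I genes, which display peptides from inside the cell, all had positive pooled values with a median of 0.65. Of these, 12 were higher at an unadjusted p below 0.05, against 7.78% of all genes. With cohort as a covariate the median was 0.36 with 1 such gene, and within TF it was 0.52 with 0. The shares over all genes in these 2 fits were 1% and 1.34%. Mouse 5_5 was highest for 14 of the 15, and without it the pooled median was 0.46 with 6 such genes. H2-T23, a non-classical class I gene, had 21.2, 29.5, 28.1, 23 and 43.6 CPM in the delayed mice, 20.1 and 23.8 CPM in the TF WT mice and 17.9 and 12.2 CPM in the Imm2 WT mice. Its log2 fold change was 0.65 (SE 0.188, adjusted p = 0.15), with delayed mice 3_3 and 4_3 inside the range of the TF WT mice. Tap1, a subunit of the peptide transporter, gave 0.89 (SE 0.278, adjusted p = 0.154) and 0.78 (SE 0.42) within TF. Tapbp, which ties class I molecules to that transporter, gave 0.45 (SE 0.144, adjusted p = 0.154) and 0.38 (SE 0.264). Nlrc5, the transactivator of class I genes, had 4.3, 7.02, 7.37, 5.93 and 15 CPM against 4.13, 3.09, 4.47 and 2.56 CPM, and its values were 1.15 pooled and 1.14 within TF (SE 0.583). Several H2 genes have near-identical copies between which reads may be split, so single H2 values are uncertain.

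The 11 MHC class II genes, which display peptides taken up by microglia, macrophages and B cells, had a pooled median of 0.78. Of these, 4 were higher at an unadjusted p below 0.05, against 7.78% of all genes. With cohort as a covariate the median was 0.41 with 1 such gene, and within TF it was 0.56 with 0, against 1% and 1.34% of all genes. Mouse 5_5 was the highest of the 9 for all 11, and without it the medians were 0.56 pooled and 0.38 within TF. H2-DMb2, which helps to load class II peptides, had 1.13, 0.63, 0.993, 1.09 and 1.24 CPM in the delayed mice and 0.565, 0.428, 0.379 and 0.611 CPM in the WT mice, the only class II gene whose groups did not overlap. The values were 1.03 pooled (SE 0.291, adjusted p = 0.15) and 1.03 within TF (SE 0.485). Of all genes tested, 2.05% had all delayed mice above all WT mice. H2-DMb1 and H2-Ob gave 0.76 and 0.80 pooled and 0.56 and 0.51 within TF. H2-Aa, a classical class II chain, had 20.8, 36.7, 48.6, 19.5 and 84.2 CPM against 22.5, 25.8, 17.2 and 12.9 CPM, so that delayed mice 3_3 and 4_3 were below both TF WT mice.

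**Figure D2:**
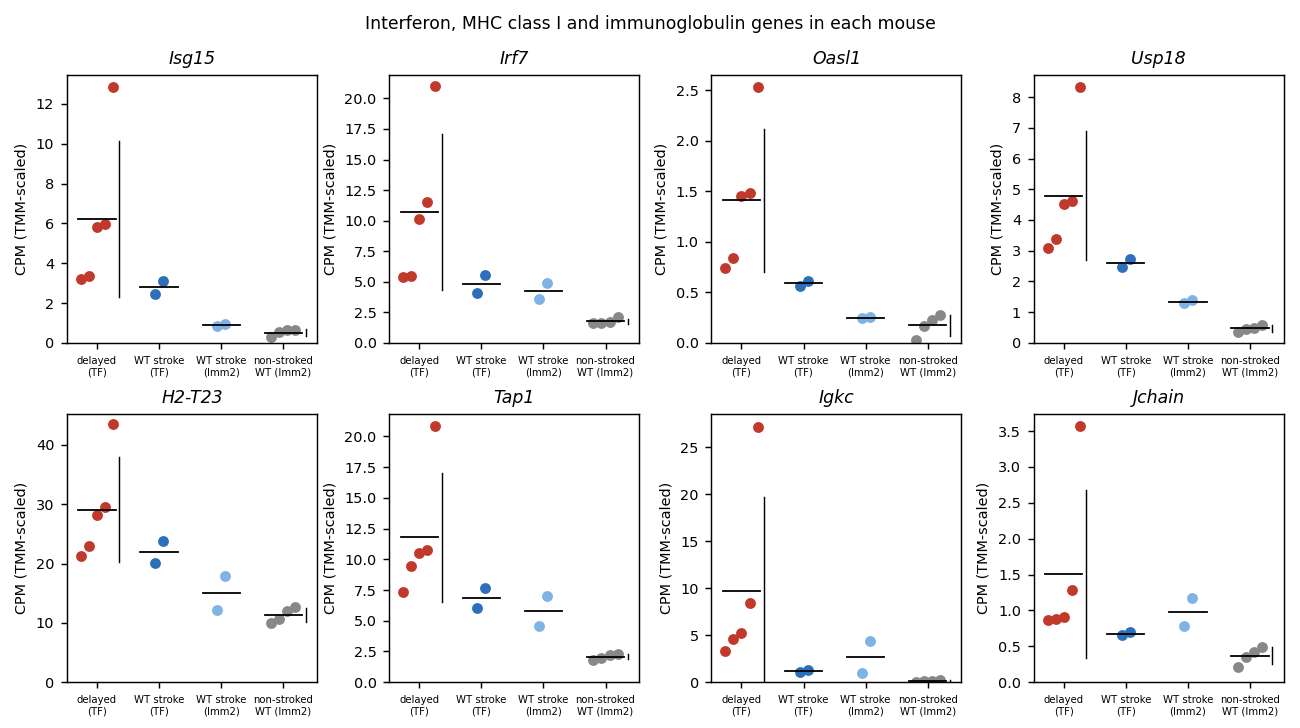
Level of 8 immune genes in each mouse, in TMM-scaled CPM on linear axes from 0. Points are mice, ordered by level within each group (WT-Tacr delayed, WT stroke of cohort TF, WT stroke of cohort Imm2 and non-stroked WT), long horizontal lines are means and vertical lines are the SD for groups of over 2 mice, cut at 0. In each of these genes mouse 5_5 is the highest delayed mouse, with 12.8 CPM for Isg15 and 27.2 CPM for Igkc, and for Irf7, H2-T23 and Tap1 the lowest delayed mice sit at the level of the WT stroke mice.

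B cell and plasma cell genes formed a list whose median was as large within TF as in the pooled comparison, over members not all the same in both. Of 18 genes listed, 11 were tested in each fit, with medians of 0.79 pooled, 0.82 with cohort as a covariate and 1.01 within TF. The 11 within TF were not all the same genes, since Ighg2b passed the filter on low counts pooled but not within TF. That filter can keep a gene through the group where it is high, so these medians do not test a difference. In these fits 5, 3 and 2 of the genes tested were higher at an unadjusted p below 0.05, against 7.78%, 1% and 1.34% of all genes. Mouse 5_5 was the highest of the 9 for 6 of the 11 tested in the pooled fit. Without it the medians were 0.58 pooled and 0.80 within TF, where 9 members were tested. Among the untreated WT mice, TF minus Imm2 gave a median of -0.24. Within TF, 5 of the 11 tested in the pooled fit had all delayed mice above both WT mice, against 4.27% of all genes. Igkc, the constant region of the kappa light chain, had 8.45, 5.2, 3.31, 4.57 and 27.2 CPM in the delayed mice, 1.04 and 1.25 CPM in the TF WT mice and 0.959 and 4.39 CPM in the Imm2 WT mice. All delayed mice were above the TF WT mice, while Imm2 mouse 2m_5 lay within their range. The log2 fold change was 2.33 (SE 0.669, adjusted p = 0.152) and within TF 3.07 (SE 1.14). Iglc1, a lambda light chain, and Cd79b, a signalling chain of the B cell receptor, were the list members whose groups did not overlap. Over all genes, 2.05% had all delayed mice above all WT mice. Both genes were read at few counts per library, Iglc1 fewest, so their separation is uncertain. Iglc1 had 0.483, 0.409, 0.372, 0.272 and 0.198 CPM against 0.174, 0.153, 0.0252 and 0.0556 CPM, and here mouse 5_5 was the lowest delayed mouse. Cd79b had 0.483, 0.63, 0.786, 0.77 and 0.446 CPM against 0.261, 0.367, 0.252 and 0.25 CPM, a log2 fold change of 1.13 (SE 0.457, adjusted p = 0.19) and 0.96 (SE 0.542) within TF. Jchain, which joins secreted IgA and IgM, had 0.885, 1.29, 0.91, 0.86 and 3.57 CPM against 0.652, 0.703, 0.783 and 1.17 CPM. Ighg2b, an IgG heavy chain, had 7, 9, 8, 0 and 17 counts in the delayed mice and 0, 2, 0 and 0 counts in the WT mice. The mean of the delayed mice was at least 3.65-fold higher than the level of 3 counts in each WT library, and Ighg2b reads may be shared with the similar Ighg2c, which gave -0.30. Ighm, the IgM heavy chain, was above both TF WT mice in the delayed mice (30 to 60.9 CPM against 27 and 25.4 CPM), but the Imm2 WT mice (55.6 and 41.8 CPM) and the non-stroked mice (41.3 to 46.7 CPM) were as high. Ms4a1, a defining B cell gene, was near the floor, with 0, 2, 3, 1 and 2 counts against 0, 4, 1 and 0, and was not tested. In bulk tissue, more cells of a type and more RNA per cell cannot be told apart.

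T cells are the main target of the drug outside the brain, and none of their genes passed the test. Of 22 markers 19 were tested, 0 in either direction reached an unadjusted p below 0.05, and the median log2 fold change was 0.20. Cd3e, a chain of the T cell receptor complex, had 0.201, 0.157, 0.29, 0.362 and 0.546 CPM in the delayed mice and 0.478, 0.336, 0.707 and 0.139 CPM in the WT mice. Its log2 fold change was -0.46 with a 95% confidence interval from -1.46 to 0.55, an interval that holds changes of either sign. Cd2, an adhesion molecule of T cells, had 0.241 to 0.621 CPM in the delayed mice and 0.153 to 0.328 CPM in the WT mice, and gave 0.94 (SE 0.565, adjusted p = 0.337). Cd28, the costimulatory receptor, and Trbc1, a receptor constant region, gave 0.94 and 0.92 with adjusted p of 0.303 and 0.323. Cd6 had the smallest p of the list, with a log2 fold change of -0.59 (SE 0.287, adjusted p = 0.249). Among 7 tested natural killer and cytotoxic genes, Klrb1c, the NK1.1 antigen, was the exception with all delayed mice above all WT mice, as for 2.05% of all genes. It had 0.272 to 0.943 CPM against 0.0916 to 0.227 CPM and a log2 fold change of 1.36 (SE 0.559, adjusted p = 0.196). These levels rest on few counts per library, so the separation is uncertain. Klrk1 and Nkg7 gave 0.95 (SE 0.559) and 0.46 (SE 0.539).

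Microglial, macrophage, complement and chemokine genes mostly had positive values in the pooled comparison and smaller ones within TF. The 22 reactive-microglia genes had medians of 0.56 pooled and 0.32 within TF, against 0.53 for TF minus Imm2 among untreated mice. Tyrobp, the adaptor of Trem2, had 57.6, 66.8, 96.6, 53.3 and 93.9 CPM in the delayed mice, 52 and 58.8 CPM in the TF WT mice and 27.8 and 26.9 CPM in the Imm2 WT mice. Lpl, a lipase of lipid-handling microglia, gave 0.83 (SE 0.302, adjusted p = 0.163) and 0.46 within TF. The 14 homeostatic-microglia genes had medians of 0.24 and 0.08, and Tmem119, one of them, had no overlap, with 33.8 to 40.8 CPM in the delayed mice against 33, 31.2, 27.5 and 27.6 CPM. In that list 2 of 14 genes had all delayed mice above all WT mice, against 2.05% of all genes. The complement list had medians of 0.60 pooled and 0.33 within TF, and the chemokine list 0.64 and 0.52. Mouse 5_5 was the highest of the 9 for 13 of the 16 complement genes and 15 of the 18 chemokine genes, and without it the medians within TF were 0.06 and 0.26. For the reactive-microglia genes it was highest for 15 of 22, and their median within TF was 0.21 without it. Cfp, the properdin that stabilizes the alternative pathway, had 14.9, 17.9, 21.2, 15.3 and 25.3 CPM against 13, 16.1, 11.5 and 9.61 CPM, and C2 and C1qc gave 0.72 and 0.56. Of the chemokine genes, Ccl8 and Cxcl13, which attract monocytes and B cells, gave 1.62 (SE 0.6, adjusted p = 0.166) and 1.83 (SE 0.683, adjusted p = 0.168), and Cxcl12 gave 0.61 (SE 0.231). Among 20 cytokine and receptor genes, with a median of 0.37 pooled, 0.18 within TF and 0.05 within TF without mouse 5_5, the decoy receptor gene Il1r2 gave 1.03 (SE 0.37, adjusted p = 0.161), Il4ra 0.39 and Tgfbr2 0.46. The 15 monocyte and macrophage genes had medians of 0.73 pooled and 0.30 within TF, against 1.02 for TF minus Imm2. Mouse 5_5 was highest for 13 of these 15, and without it the median within TF was 0.13. In the pooled comparison 7 members were higher at an unadjusted p below 0.05, against 7.78% of all genes, and 1 without mouse 5_5. Plac8, a gene of monocytes and other myeloid cells, had no overlap between groups (0.563 to 1.39 CPM against 0.126 to 0.522 CPM) and a log2 fold change of 1.51 (SE 0.501, adjusted p = 0.154). It was 1 of 2 monocyte and macrophage genes so separated, against 2.05% of all genes. Lyve1 and Cbr2, genes of macrophages at brain borders, gave 0.67 and 0.88.

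**Figure D3:**
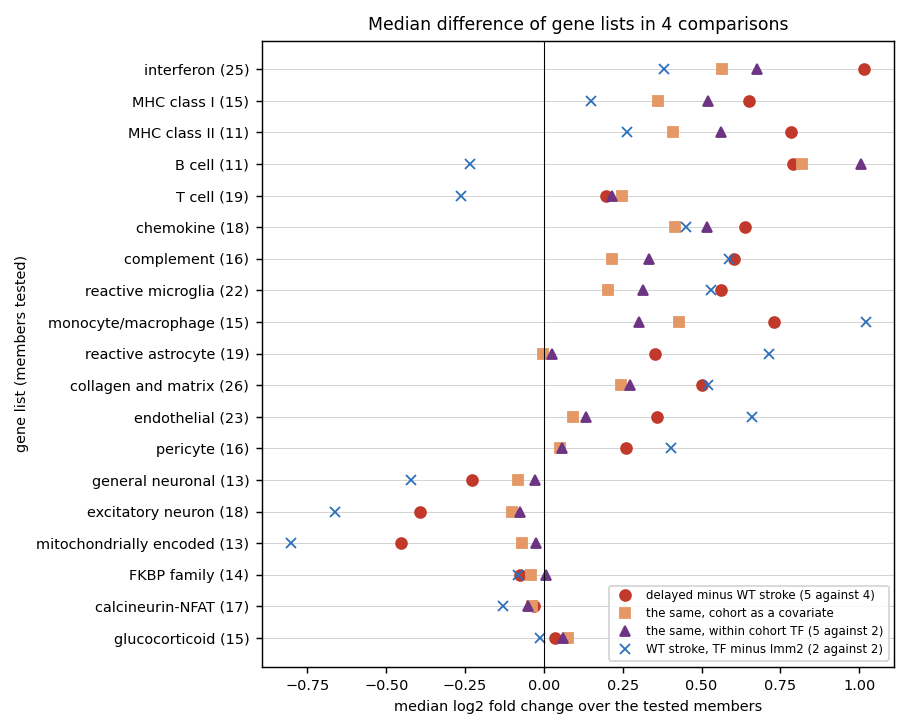
Median log2 fold change over the tested members of each gene list, on the x axis, with the number of members tested beside the list's name. Red circles are the pooled comparison of delayed with WT stroke, orange squares the same with cohort as a covariate, purple triangles the same within cohort TF and blue crosses TF minus Imm2 among the untreated WT mice. For excitatory neuron genes the median goes from -0.39 pooled to -0.08 within TF. For B cell genes it goes from 0.79 to 1.01, over members that are not all the same.

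The 12 genes with the smallest p in the higher direction each had an adjusted p of 0.15. Tagap, a GTPase-activating protein expressed in activated T cells, had 2.45, 3.15, 2.61, 2.31 and 3.77 CPM in the delayed mice and 1, 1.47, 1.21 and 1.31 CPM in the WT mice. The groups were well apart and both WT cohorts had the same level. The gene lies at chr17:7926000-7934897 (plus strand, GRCm38), and its log2 fold change was 1.19 (SE 0.266) pooled and 1.20 (SE 0.313) within TF. Depp1 (chr6:116650609-116652794, plus strand), a gene induced by FOXO factors, had 2.81, 2.77, 1.86, 3.21 and 3.12 CPM against 1.3, 0.733, 0.959 and 1.06 CPM, with log2 fold changes of 1.45 (SE 0.36) pooled and 1.46 (SE 0.302) within TF. Ddit4, an inhibitor of mTORC1 that responds to stress and glucocorticoids, had 64, 50.6, 41.1, 54.6 and 65.8 CPM against 41.2, 33, 34.1 and 28.9 CPM. Delayed mouse 3_5 and WT mouse 5_2 met at 41.1 and 41.2 CPM, and the log2 fold change was 0.69 (SE 0.157), or 0.58 (SE 0.179) within TF.

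Oasl1 and Dhx58, both interferon-inducible regulators of RNA sensing, were also among these 12. Oasl1 had 0.845, 1.48, 0.745, 1.45 and 2.53 CPM against 0.565, 0.611, 0.252 and 0.25 CPM, and a log2 fold change of 1.76 (SE 0.437). Dhx58 gave 0.996 (SE 0.252) with no overlap, mouse 3_3 at 2.73 CPM and WT mouse 5_2 at 2.69 CPM being the closest. Ptger2, a prostaglandin E2 receptor, gave 1.58 (SE 0.412), and Afp, alpha-fetoprotein, was read at 4, 12, 8, 3 and 8 counts in the delayed mice and 2, 2, 1 and 2 counts in the WT mice. Aldh16a1, Armc2 and Glmp had small log2 fold changes of 0.59, 0.45 and 0.35, and Exoc3l2 gave 1.42. Ighg2b, described above, completes the 12.

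The 12 genes with the smallest p in the lower direction also had an adjusted p of 0.15, and 7 of them stood far higher in the Imm2 WT mice than in any TF mouse. Gm37899, Gm49677, Gm44800, Gm47586, Gm48381 and Gm37472 are predicted transcripts of the annotation's TEC class. Gm37899 had 0.121, 0.315, 0.29, 0.272 and 0.0496 CPM in the delayed mice, 0.391 and 0.519 CPM in the TF WT mice and 4.9 and 5.45 CPM in the Imm2 WT mice. The step between cohorts was thus far larger than that between delayed and TF WT mice. Ccnb1ip1, a meiotic ubiquitin ligase gene, had 0.124 to 0.241 CPM against 0.565 and 0.183 CPM in TF and 2.02 and 2.53 CPM in Imm2. The neuronal genes among the 12 were Bhlhe22, a transcription factor of cortical projection neurons, and Dlgap1, a postsynaptic scaffold. Dlgap1 had 388, 424, 385, 331 and 361 CPM in the delayed mice, 437 and 465 CPM in the TF WT mice and 584 and 673 CPM in the Imm2 WT mice, so the delayed mice were lowest and the groups did not overlap. This gave -0.51 (SE 0.122) pooled and -0.25 (SE 0.13) within TF. Bhlhe22 gave -0.87 (SE 0.198) and -0.46 (SE 0.238). Cdk14, Nrbf2 and Epc2 had no overlap either, with pooled values of -0.51, -0.52 and -0.48 and values within TF of -0.26, -0.27 and -0.21.

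Within TF the 12 genes with the smallest p, chosen after their values were seen and with at least 10 counts in 1 of the 9 mice, were Vma21, Depp1, Muc3a, Ccn1, Pou2f2, Iqcd, Tmem252, Tagap, Pim3, Rtp1, Fkbp5 and Irf2bp2. All had an adjusted p of 1. Ccn1, a matricellular protein induced by YAP signalling, had 16.4, 12.5, 11.5, 16.7 and 18.6 CPM in the delayed mice, 7.39 and 9.41 CPM in the TF WT mice and 5.98 and 7.33 CPM in the Imm2 WT mice. Its groups did not overlap, and the log2 fold change was 0.85 (SE 0.2) within TF and 1.01 (SE 0.452) pooled. The non-stroked mice had 4.64 to 33.2 CPM for the same gene, a spread wider than that between the groups. Pim3, a serine-threonine kinase, had 31 to 38.1 CPM against 24.8 to 30.2 CPM in the 4 WT mice and the same value in both fits, 0.33. Vma21, an assembly factor of the proton pump, gave -0.23 (SE 0.0499) within TF but -0.12 (SE 0.0843) pooled, since Imm2 mouse 2m_3 had 28.2 CPM, below every delayed mouse.

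Glucocorticoid-response genes had values of both signs. Fkbp5, an FKBP family member and a co-chaperone that dampens the glucocorticoid receptor, had 51, 51, 58.2, 53.6 and 73.3 CPM in the delayed mice, 79.7 and 80.5 CPM in the TF WT mice and 64 and 68.2 CPM in the Imm2 WT mice. All delayed mice were below the TF WT mice, and mouse 5_5 was above the Imm2 mice. The log2 fold change was -0.48 (SE 0.135) within TF and -0.35 (SE 0.148, adjusted p = 0.205) pooled, and the non-stroked mice had 27.5 ± 5.2 CPM (SD, n = 4). Zbtb16, a zinc-finger gene induced by glucocorticoids, had 38.7, 36.6, 35.7, 23.2 and 29.8 CPM against 58, 47.2, 90.3 and 111 CPM. Every delayed mouse was below every WT mouse, with log2 fold changes of -1.22 (SE 0.317, adjusted p = 0.15) pooled and -0.67 (SE 0.27) within TF. Plin4, a lipid-droplet protein gene of the same list, was lower than in both TF WT mice as well (16.7 to 27.2 CPM against 34.3 and 32.7 CPM), but above the Imm2 WT mice (13.6 and 14.7 CPM). In this list 3 of 15 genes had all delayed mice below both TF WT mice and 1 above both, against 5.48% and 4.27% of all genes. Below all 4 WT mice there was 1, against 2.18% of all genes. Sgk1, a kinase gene induced by the same hormones, had 183, 150, 126, 162 and 167 CPM against 134, 90.4, 103 and 120 CPM and gave 0.49 (SE 0.144, adjusted p = 0.15) pooled and 0.49 (SE 0.169) within TF, with delayed mouse 3_5 below WT mouse 5_2. Nfkbia, the inhibitor of NF-kB, gave 0.61 (SE 0.173) and 0.45 (SE 0.176). Of the 15 genes of this list, 3 were higher and 3 lower at an unadjusted p below 0.05 within TF, against 1.34% and 1.06% of all genes, and the median was 0.06. With the delayed and TF WT mice compared in the fit of all samples, 2 were higher and 1 lower. Per1, a clock gene that is also an immediate early gene, was among them with 146 to 169 CPM in the delayed mice against 117 and 133 CPM in TF and 196 and 186 CPM in Imm2. The 21 immediate early genes had medians of 0.07 pooled and 0.25 within TF. Within TF 3 were higher at an unadjusted p below 0.05, and 0 when the same mice were compared in the fit of all samples; the 3 were Per1, Junb (0.44, SE 0.183) and Nr4a1 (0.54, SE 0.236); Junb had 48 to 56.7 CPM in the delayed mice and 28.4 and 49.7 CPM in the TF WT mice, so that WT mouse 5_2 stood apart, and the non-stroked mice had 60 to 204 CPM. Jun, with the smallest pooled p of the list, gave -0.31 and, within TF, -0.07.

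**Figure D4:**
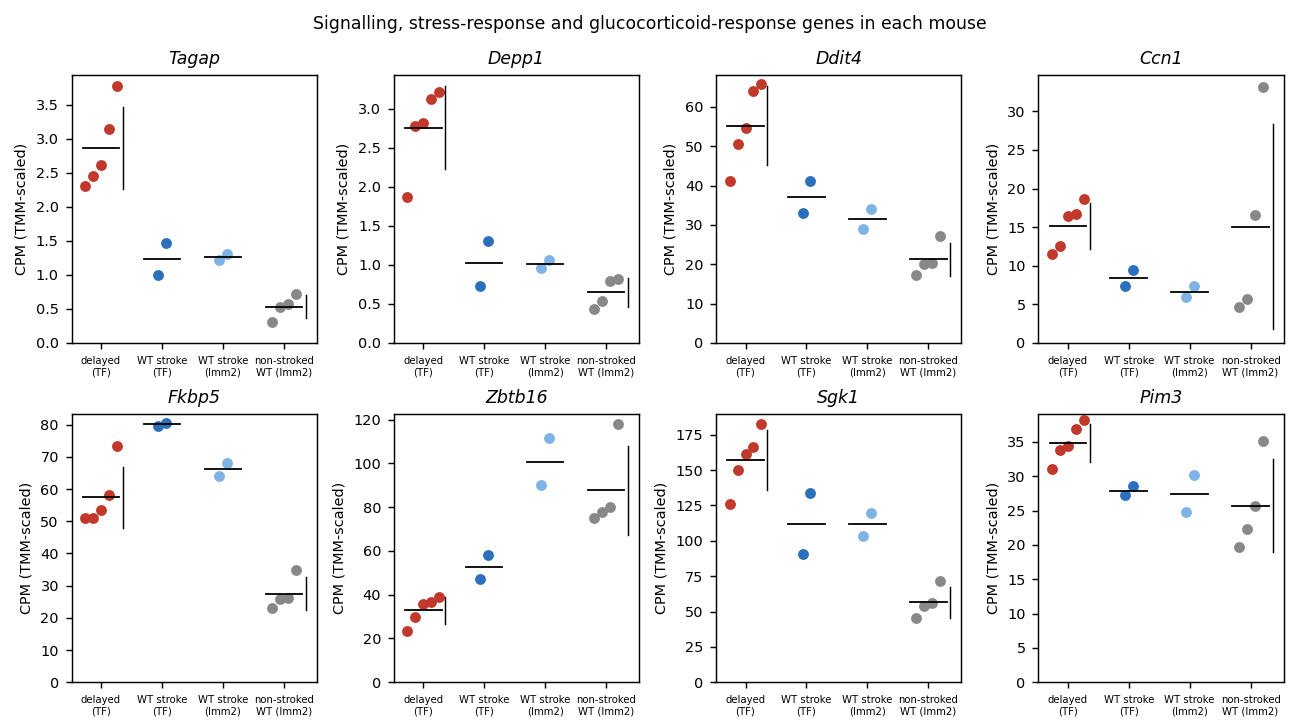
Level of 8 signalling, stress-response and glucocorticoid-response genes in each mouse, in TMM-scaled CPM on linear axes from 0. Points are mice, ordered by level within each group, long horizontal lines are means and vertical lines are the SD for groups of over 2 mice. Tagap and Depp1 show the delayed mice (2.31 to 3.77 and 1.86 to 3.21 CPM) above both cohorts of WT stroke mice, which are at one level, while Zbtb16 shows the delayed mice below both cohorts, which differ from each other.

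The genes behind the proteins that the study stained gave no call. Gfap, the intermediate filament of scar-forming astrocytes, had 1015, 1245, 1320, 1166 and 1055 CPM in the delayed mice, 1066 and 1144 CPM in the TF WT mice, 903 and 765 CPM in the Imm2 WT mice and 102 to 172 CPM in the non-stroked mice. Delayed and TF WT mice overlapped, and the log2 fold change was 0.26 with a 95% confidence interval from -0.35 to 0.87. Aif1, which encodes Iba1 of microglia and macrophages, had 11.2, 13.7, 14.1, 9.46 and 15.3 CPM against 7.95, 9.59, 7.57 and 6.89 CPM. The overlap consisted of mouse 4_3 and WT mouse 5_3, and the log2 fold change was 0.67 (95% confidence interval 0.18 to 1.17, adjusted p = 0.161) and 0.54 (SE 0.313) within TF. Pecam1, the CD31 of endothelium, had 18.1, 19.6, 19.4, 19.9 and 27.2 CPM against 23.3, 19.2, 12.7 and 15.3 CPM, and gave 0.24 (95% confidence interval -0.10 to 0.58). Anpep, the CD13 of pericytes, gave 0.63 (95% confidence interval -0.13 to 1.39). Rbfox3, the NeuN antigen, had 211 to 264 CPM in the delayed mice, 234 and 246 CPM in the TF WT mice and 414 and 391 CPM in the Imm2 WT mice. Its pooled log2 fold change was -0.42 (SE 0.156, adjusted p = 0.168) and that within TF 0.01 (SE 0.11). Nefl and Nefh, the light and heavy neurofilament chains, gave -0.16 and -0.42 pooled and -0.10 and 0.01 within TF.

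The general neuronal, excitatory neuron and mitochondrial lists had negative pooled medians that were close to 0 within TF, as Rbfox3 did, and vascular lists had positive ones that were smaller within TF. Of 18 genes of excitatory neurons and cortical layers, 8 were lower and 2 higher at an unadjusted p below 0.05 (12.5% and 7.78% of all genes), with a median of -0.39, and 0 reached that level within TF, where the median was -0.08. Neurod2 and Slc17a7, a transcription factor and the vesicular glutamate transporter of these neurons, gave -0.90 and -0.52 pooled and -0.18 and -0.15 within TF. Camk2a, the synaptic kinase of excitatory neurons, had 3142, 2855, 2863, 2498 and 2286 CPM against 3459 and 2994 CPM in TF and 4556 and 6187 CPM in Imm2. Of 13 general neuronal genes, 7 were lower at an unadjusted p below 0.05 pooled and 0 within TF, against 12.5% and 1.06% of all genes. Thy1 and Stmn2 went from -0.50 and -0.37 pooled to -0.02 and -0.07 within TF. Among 18 inhibitory neuron and neuropeptide genes with a median of 0.02, Cck, Npy and Pdyn gave -0.69, -0.68 and 0.74 pooled, and within TF -0.05, 0.08 and 0.45. The 13 mitochondrially encoded genes had a median of -0.45, with 8 lower at that level, and -0.03 within TF with 0 lower, against the same shares of all genes. For mt-Nd3, a complex I subunit, the delayed mice (3.56 to 5.09 CPM) and TF WT mice (5.26 and 4.64 CPM) overlapped, and the Imm2 WT mice had 10.8 and 15.5 CPM. mt-Nd1 went from -0.72 pooled to -0.01 within TF, and mt-Nd6 from -0.96 to -0.46. The 23 endothelial genes had a pooled median of 0.36 with 10 higher at an unadjusted p below 0.05, against 7.78% of all genes. Within TF the median was 0.13 with 2 higher, against 1.34% of all genes, and 0.05 without mouse 5_5. With the delayed and TF WT mice compared in the fit of all samples, 0 were higher. Kdr, the main VEGF receptor, had 13.8, 11.5, 12.5, 12.9 and 16.6 CPM in the delayed mice, 10.9 and 9.9 CPM in the TF WT mice and 6.08 and 4.61 CPM in the Imm2 WT mice. It kept all delayed mice above both TF WT mice, with a log2 fold change of 0.38 (SE 0.16) within TF and 0.78 (SE 0.27, adjusted p = 0.155) pooled. Esam, an endothelial adhesion molecule, also had no overlap, with 14 to 15.9 CPM against 12.8, 13, 7.6 and 5.75 CPM, and gave 0.63 (SE 0.199) pooled and 0.23 (SE 0.0807) within TF. Kdr and Esam were the 2 of 23 endothelial genes with all delayed mice above all WT mice, against 2.05% of all genes. The angiopoietin receptor Tek and its relative Tie1 gave 0.65 and 0.72 pooled and 0.33 and 0.31 within TF. Of 32 angiogenesis genes, 6 were higher and 1 lower at an unadjusted p below 0.05, against 7.78% and 12.5% of all genes, with medians of 0.19 pooled and 0.10 within TF. Mouse 5_5 was highest for 23 of them, and without it 3 were higher and the median within TF was -0.01. The 16 pericyte genes had medians of 0.26 and 0.06, the latter being -0.05 without mouse 5_5, with Pdgfrb, Tagln and Vtn at 0.36, 0.59 and 0.33 pooled. The part of cohort, sex and treatment in these pooled values cannot be told apart, and for the general neuronal, excitatory neuron and mitochondrial lists the medians within TF were near 0.

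**Figure D5:**
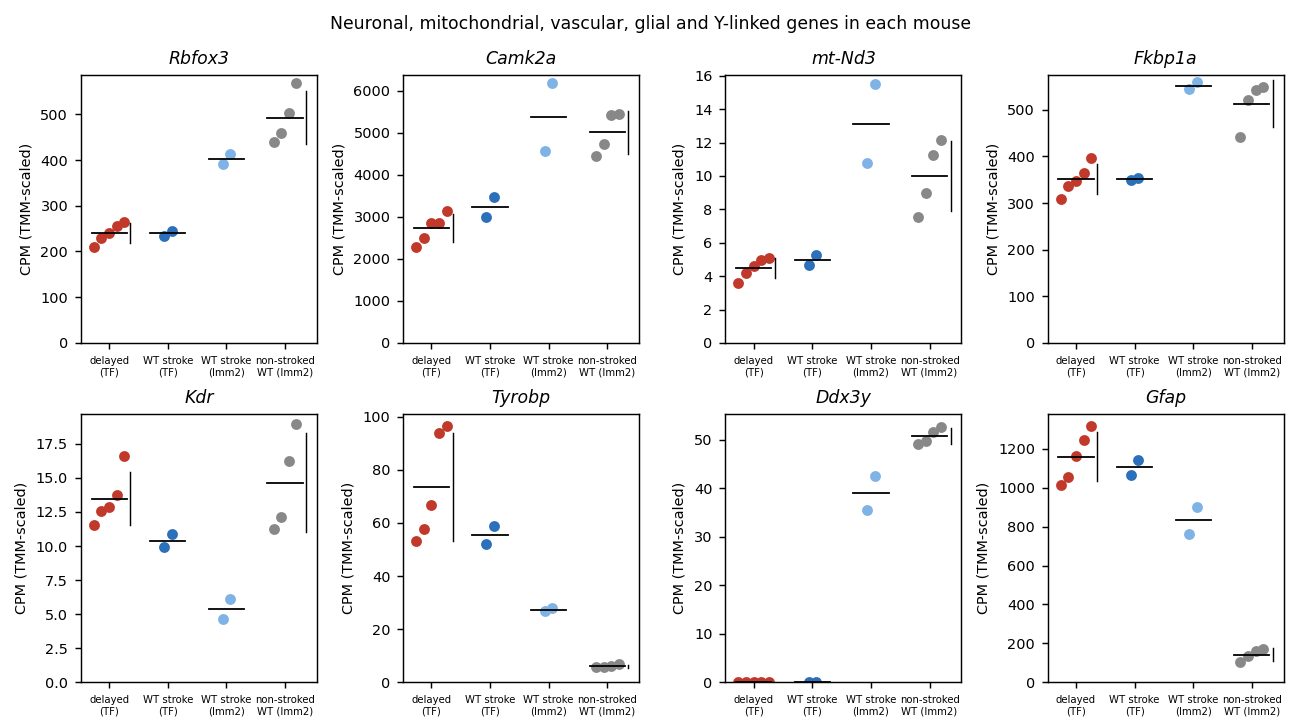
Level of 8 neuronal, mitochondrial, vascular, glial and Y-linked genes in each mouse, in TMM-scaled CPM on linear axes from 0. Points are mice, ordered by level within each group, long horizontal lines are means and vertical lines are the SD for groups of over 2 mice. For Rbfox3, mt-Nd3 and Fkbp1a the WT-Tacr delayed mice and the TF WT mice lie together and the Imm2 WT mice higher, and Ddx3y is at 0 in all TF mice.

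Collagen and matrix genes depended on 1 mouse. The 26 tested members had a median of 0.50 pooled and 0.27 within TF, and mouse 5_5 was the highest of the 9 for 24 of them. Without it the medians were 0.20 and -0.03. Thbs1, thrombospondin 1, had 13.2, 22.3, 26.9, 15.3 and 54.8 CPM in the delayed mice, 15.7 and 17.7 CPM in the TF WT mice and 6.19 and 6.11 CPM in the Imm2 WT mice, so that delayed mice 3_3 and 4_3 were below both TF WT mice. Col18a1 and Col8a1, basement membrane collagens, gave 0.94 and 0.96 pooled and 0.54 and 0.58 within TF. The 16 metalloproteinase and inhibitor genes had a median of 0.20 pooled and 0.11 within TF, with Mmp8 and Mmp2 at 1.44 and 0.71. Mmp24, a neuronal membrane-bound member, was lower with no overlap, 37.1 to 40.2 CPM against 41.3, 45.4, 51.6 and 46.8 CPM. It was the 1 gene of the 16 with all delayed mice below all WT mice, against 2.18% of all genes. Choroid plexus genes, which mark tissue of the ventricles beside the cortex, had the highest median of any list, 1.91 pooled and 1.15 within TF, against 2.14 for TF minus Imm2. All 15 members had positive values pooled and within TF. At an unadjusted p below 0.05 there were 2 of them pooled and 0 within TF, against 7.78% and 1.34% of all genes higher. Without mouse 5_5 the medians were 1.78 and 1.06. Relative to the mean of the TF WT mice, the median log2 difference was 1.15, 1.58, 1.62 and 1.56 in delayed mice 3_3, 3_5, 4_3 and 5_5 and -2.41 in mouse 3_4. The summed level of the 15 genes was 43.1 to 955 CPM in the delayed mice, 197 and 312 CPM in the TF WT mice, 35.8 and 43.0 CPM in the Imm2 WT mice and 26.1 to 904 CPM in the non-stroked mice. Kcnj13, Prlr and Tmem72 gave 1.91, 2.16 and 2.88 with adjusted p of 0.191, 0.21 and 0.256. Delayed mouse 3_4 was the 1 delayed mouse at the level of the Imm2 mice. The non-stroked mice, all of Imm2, spanned nearly the whole range of the delayed mice. The part of this tissue in the other results was not tested.

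Glial lists other than those of microglia had medians close to 0 within TF. Of 19 reactive-astrocyte genes, 2 were higher at an unadjusted p below 0.05, against 7.78% of all genes, and the median went from 0.35 pooled to 0.02 within TF, against 0.71 for TF minus Imm2. Aspg and Stat3 gave 0.67 and 0.24 pooled. Nes, the nestin of reactive astrocytes and progenitors, had no overlap, with 19 to 23.3 CPM against 18.7, 16.3, 14.4 and 13.9 CPM. It was the 1 gene of the 19 with all delayed mice above all WT mice, against 2.05% of all genes. The 13 astrocyte identity genes had 3 members lower at an unadjusted p below 0.05, against 12.5% of all genes, and a median of -0.15. Within TF the median was -0.06 and 2 of the 13 had positive values. There 3 had all delayed mice below both WT mice, against 5.48% of all genes, and 0 reached an unadjusted p below 0.05. Glul, the glutamine synthetase, had 1735, 1787, 1787, 1689 and 1756 CPM in the delayed mice, 2017 and 1859 CPM in the TF WT mice and 2096 and 2555 CPM in the Imm2 WT mice, with no overlap, and gave -0.28 (SE 0.0905, adjusted p = 0.154) pooled and -0.14 (SE 0.0755) within TF. Aldoc, the aldolase of astrocytes, likewise had no overlap (-0.29 pooled and -0.17 within TF), and the glutamate transporter gene Slc1a2 gave -0.28 and -0.16. Glul and Aldoc were the 2 of 13 with all delayed mice below all WT mice, against 2.18% of all genes. The 16 myelin genes had a median of -0.01 and the 14 oligodendrocyte precursor genes -0.06. Trf, the iron carrier made by oligodendrocytes, had no overlap, with 407 to 467 CPM against 406 and 378 CPM in TF and 293 and 259 CPM in Imm2, while Mal and Mobp gave -0.38 and -0.37. Trf was the 1 myelin gene of 16 with all delayed mice above all WT mice, against 2.05% of all genes. C1ql1, Bcas1 and Olig1 gave -0.57, -0.47 and -0.33 pooled and 0.04, -0.03 and 0.00 within TF.

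Apart from the Y-linked genes, the remaining lists had medians between -0.08 and 0.30 in the pooled comparison. The 33 ribosomal and 30 nuclear oxidative phosphorylation genes had medians of 0.08 and 0.06. In both, the Imm2 WT mice stood apart from the TF mice for single genes, to either side: Rps14 had 168 to 193 CPM in the delayed mice, 166 and 167 CPM in the TF WT mice and 95.9 and 82.3 CPM in the Imm2 WT mice, whereas Rpl35, Rpl11, Cox8a and Cox5b gave -0.61, -0.36, -0.46 and -0.40 pooled and 0.06, -0.01, 0.03 and 0.00 within TF, and Ndufc1 gave 0.55 and 0.07. The 18 cell cycle genes had a median of 0.20, with Ccnb1, Aurkb and Tyms at 0.70, 0.77 and 0.44. The 19 axon injury and growth genes had a median of 0.19, with the Nogo receptor gene Rtn4r at -0.61 and the injury factor Atf3 at 1.13 (SE 0.492, adjusted p = 0.212). The 18 cholesterol synthesis genes, of which Fdft1 and Hmgcs1 gave -0.27 and -0.15, had a median of -0.08. The 17 chaperone and unfolded protein genes had a median of 0.02, with Atf4, Sdf2l1 and Calr at -0.23, 0.53 and -0.19. The 16 striatal and other subcortical genes had a median of 0.30 pooled, 0.08 within TF and 0.90 for TF minus Imm2, and Rora, Rgs9 and Drd1 gave -0.30, 0.90 and 0.77. The 5 blood cell genes had a median of 0.07, with Hba-a2, Alas2 and Hba-a1 at 0.49, -0.67 and 0.22. The 4 Y-linked genes tested, Ddx3y, Kdm5d, Eif2s3y and Uty, were read in the Imm2 WT mice and not in the TF mice. Over all 41 lists, 655 genes were tested and 0 were called.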

How the data were processed

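The values are raw counts of reads per gene, 1 file per sample, as deposited by the authors. According to the methods, polyA RNA was prepared with a stranded kit, and alignment and counting were done at a sequencing center; the aligner, genome build and use of strand are not given in the sources used here. Of 25746 gene IDs, 25712 were named from GENCODE M21 (GRCm38), and 34 were not.

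Groups came from the genotype and treatment labels, and cohorts from the title prefix. Counts were tested in R 4.3.3 with edgeR 4.0.16 (TMM, filterByExpr by group, 8 groups, quasi-likelihood test, Benjamini-Hochberg adjustment over 17031 genes). Genes were called where the log2 fold change was beyond 1 in either direction with an adjusted p under 0.05. The SE is the absolute log2 fold change divided by the square root of F. The fit within TF used its 9 samples, acute tacrolimus included. The steps were tested on simulated data. DESeq2 1.42.0 and other settings were alternatives.

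The comparison and the 41 lists were chosen with earlier results of these data known. Genes were named as the 12 called with the largest change per direction, filled by those with the smallest p where fewer were called (at least 10 counts in 1 of the 9 samples), all tested genes of the FKBP, calcineurin, stained and Y-linked lists, and the 3 with the smallest p of every other list; further genes, among them Cd3e, Il2, Ifng, Ms4a1, Gbp3, Usp18, Ifit1, Jchain, Cd79b, Ighm, Cd2, Nlrc5, Plin4, Per1, Junb, Nr4a1, Ighg2c, H2-Aa and Vma21, were chosen after their values were seen. Some genes that the rule names are not reported here. That labels mark separate mice comes from the mouse numbers in the titles. The p-values rest on the spread between mice within groups, estimated over all samples of each fit and not only the mice compared.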

Additional observations from a re-analysis of the deposited data

Results flagged for a closer look

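Of 72 sets of values tested for a sample far from the others (the genes with the smallest p, the stained genes and the summed level of 8 lists, each in the 5 WT-Tacr delayed and the 4 WT stroke mice), 7 had one by Dixon's ratio, where chance gives about 1 in 20. Delayed mouse 5_5 was far above the other delayed mice for Ptger2 (2.03 CPM), for Pecam1 (27.2 CPM), for the summed level of endothelial genes (905 CPM) and for that of collagen and matrix genes (3343 CPM, the other delayed mice being at 1201 CPM or more). Delayed mouse 3_4 was far below the others for the summed choroid plexus genes (43.1 CPM) and was the only delayed mouse with reads of Gm47586 (0.0315 CPM). WT mouse 5_3 was the only untreated stroked mouse with reads of Ighg2b (0.0611 CPM).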

How the results depend on the processing

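The count of called genes was 0 under RLE normalization, with no filter or a filter at a mean of 1 CPM, in fits of only the 9 or only the stroked samples, with cohort or Ddx3y as a covariate, within TF with or without the acute samples, and with no minimum fold change. It was 1 with DESeq2, by which 4 genes passed the adjusted p alone in the higher direction and 195 in the lower, and ran from 0 to 227 when 1 mouse was left out: 88 without WT mouse 5_2, 227 without WT mouse 5_3, and 0 without any of the other 7. Against only the Imm2 WT mice, an alternative added after the data were seen in which treatment and cohort coincide, it was 900. Against only the TF WT mice with all samples in the fit, also added later, it was 0. Within TF and with cohort as a covariate, it was 0 with any mouse left out. TF minus Imm2 among WT mice gave 652 genes in a fit of these 4 mice instead of 351. The number at an unadjusted p below 0.05 was 3455 with 20.3% of the genes, and 1241 without WT mouse 2m_5.

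The sign of some pooled values with an unadjusted p below 0.05 turned within TF. With and without the acute samples in the fit, the log2 fold change was 0.0030 and 0.0022 for Fkbp1a, 0.0543 and 0.0540 for Fkbp1b, 0.0030 and 0.0025 for Fkbpl, 0.0060 and 0.0056 for Rbfox3, 0.0101 and 0.0105 for Nefh, 0.0849 and 0.0848 for Npy, 0.0374 and 0.0350 for C1ql1, 0.0633 and 0.0630 for Rpl35, and 0.0329 and 0.0327 for Cox8a, and with them 0.0007 for Cox5b. Against TF WT mice with all samples in the fit it was 0.0515 for Fkbp1b, 0.0028 for Rbfox3, 0.0072 for Nefh, 0.0820 for Npy, 0.0323 for C1ql1, 0.0596 for Rpl35 and 0.0291 for Cox8a. By construction these fits leave out the contrast with Imm2. Of all named genes and alternatives, 26 values turned in this way and 55 from a pooled value whose p was not below 0.05, and 96 were called with the direction kept, in each case against only the Imm2 WT mice or without WT mouse 5_2 or 5_3.

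No paired analysis was possible because the mouse numbers of the titles do not mark pairs across the groups. Depth limits the T cell cytokine genes, Klrb1c and some B cell genes, such as Ms4a1, Ighg2b, Iglc1 and Cd79b, which had few counts per library.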
